A study of Mus musculus with 10 samples.

Results

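The Hox genes were followed in the hearts of mice with Ft1 deleted in the whole body (Ft1ko) or by sm22-cre (Ft1sm22ko). Of the 17575 genes found in 3 deposited tables of gene expression, 23 were Hox genes. They were chosen by name alone, as every row called Hoxa, Hoxb, Hoxc or Hoxd with a number, and no measured value entered the choice. Of the 39 Hox genes that RefSeq names in the mouse, the 16 that had no row were not analysed here. Ft1ko was compared with WT in the first table, Ft1sm22ko with WT in the second and Ft1ko with Ft1sm22ko in the third. They listed 21, 20 and 23 Hox genes, and 19 stood in every table.

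Hox genes encode transcription factors with a homeodomain, and lie in 4 clusters on different chromosomes. Within a cluster the genes stand in the order in which they are used along the body, so that low paralog numbers mark the head and neck end and high numbers the trunk, limbs and tail. In the embryo the anterior genes pattern the pharyngeal arches and the neural crest, and they also mark progenitors of the second heart field that form the outflow tract and part of the atria. After birth, connective tissue cells of many organs keep the Hox genes of the level at which they arose, which is why the set is described as a positional code.

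RNA from hearts of male mice aged 1 week was sequenced, and the groups held 3 WT, 3 Ft1ko and 4 Ft1sm22ko animals. Ft1, in mouse also called Aktip, encodes a protein related to ubiquitin-conjugating enzymes. In Ft1ko a floxed Ft1 allele was recombined by CMV-cre, which acts in the whole body, and in Ft1sm22ko by sm22-cre, driven by the promoter of the smooth muscle gene Tagln, which is also active in the early embryonic heart. The WT group carried neither deletion, and the breeding of the WT mice is not given in the sources used here. Aktip itself was lower than in WT by a log2 difference of -1.93 (SE 0.27, adjusted p = 5.08e-11) in Ft1ko and of -1.21 (SE 0.27, adjusted p = 0.000107) in Ft1sm22ko.

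The deposited tables give 1 value per gene and comparison, so values of single hearts were not analysed here. Neither the spread between hearts nor the overlap of the groups can be shown. A level is written as a normalized count, the number of reads of a gene divided by the DESeq2 size factor of its library. A difference is written as the log2 of the first group over the second, with the standard error of the DESeq2 model. The level in each group was worked out from the mean of the table, the difference and the number of hearts, and has no error. Each table was scaled on its own, so levels are compared only inside a table. Differences were called at an adjusted p under 0.05, by Benjamini-Hochberg over all genes of the table that have a p.

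The promoters shown are those of the 2 genes with the smallest p in Ft1ko against WT (Hoxa3 and Hoxa5), which were higher there, and of the gene that was lower in Ft1sm22ko (Hoxd4). The sequences are those of RefSeq on GRCm38.p6, 5′ to 3′ on the strand of the gene, and run from 250 bases before to 50 bases after its start. Capitals mark any match, on either strand, to CCAAT, to TATAAA, to TGACAG (a core bound by the cofactors Meis and Pknox), to TGATNNAT (a joint Pbx and Hox core) or to TTTATGG (a core bound by posterior Hox and Cdx proteins).
Hoxa3, chr6:52213018-52213317, minus strand: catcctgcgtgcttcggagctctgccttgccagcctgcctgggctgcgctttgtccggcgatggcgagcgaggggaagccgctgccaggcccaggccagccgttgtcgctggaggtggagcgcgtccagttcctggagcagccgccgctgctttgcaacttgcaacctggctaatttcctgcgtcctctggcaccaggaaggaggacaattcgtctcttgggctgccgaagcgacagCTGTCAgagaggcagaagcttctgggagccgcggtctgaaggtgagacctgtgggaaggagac
Hoxa5, chr6:52204538-52204837, minus strand: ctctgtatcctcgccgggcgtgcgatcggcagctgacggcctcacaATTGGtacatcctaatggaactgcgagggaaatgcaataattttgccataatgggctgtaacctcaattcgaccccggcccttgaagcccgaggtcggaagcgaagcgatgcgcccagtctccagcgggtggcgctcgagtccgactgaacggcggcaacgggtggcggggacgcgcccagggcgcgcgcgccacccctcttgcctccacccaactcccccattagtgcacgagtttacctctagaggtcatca
Hoxd4, chr2:74721728-74722027, plus strand: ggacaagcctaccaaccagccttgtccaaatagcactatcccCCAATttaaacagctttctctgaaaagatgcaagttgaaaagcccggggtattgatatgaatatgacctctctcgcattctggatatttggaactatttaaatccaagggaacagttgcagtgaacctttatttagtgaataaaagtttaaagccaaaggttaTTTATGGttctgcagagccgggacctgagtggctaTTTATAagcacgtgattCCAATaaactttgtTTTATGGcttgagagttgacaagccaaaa
The Hoxa3 window held a TGACAG match, the Hoxa5 window a CCAAT match, and the Hoxd4 window matches to CCAAT, to TATAAA and to TTTATGG. Among 32851 mouse promoters of the same length, CCAAT was found in 37.4%, TATAAA in 13.6%, TGACAG in 19.2%, TGATNNAT in 8.85% and TTTATGG in 2.75%. Of the 14 Hox genes that had a promoter in this table, 9 held CCAAT, 2 TATAAA, 2 TGACAG, 3 TGATNNAT and 1 TTTATGG. The median Hox promoter held 11.5 CG pairs, against 7 over all promoters, and the 3 printed windows ranged from 29 in Hoxa5 and 20 in Hoxa3 to 4 in Hoxd4.

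The listed genes belonged almost all to the anterior and central part of the code. Of the anterior genes, with paralog numbers 1 to 3, the tables listed 7 of 8, and of the central genes, numbers 4 to 8, 14 of 15. Of the posterior genes, numbers 9 to 13, they listed 2 of 16, namely Hoxa9 and Hoxd9. The 12 genes with numbers 10 to 13, which pattern the lumbar and sacral body, the tail and the limbs, were not analysed here. By cluster the tables listed 8 of 11 Hoxa, 8 of 10 Hoxb, 3 of 9 Hoxc and 4 of 9 Hoxd genes. A gene was counted as measured at a mean of at least 10 normalized counts over the hearts of a table. By that limit 12 of 21, 9 of 20 and 17 of 23 listed genes were measured in the 3 tables. Low genes can reach this limit through the group in which they are high, as Hoxb6, Hoxb7 and Hoxb8 did through Ft1ko in the table of the 2 mutants.

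**Figure D1:**
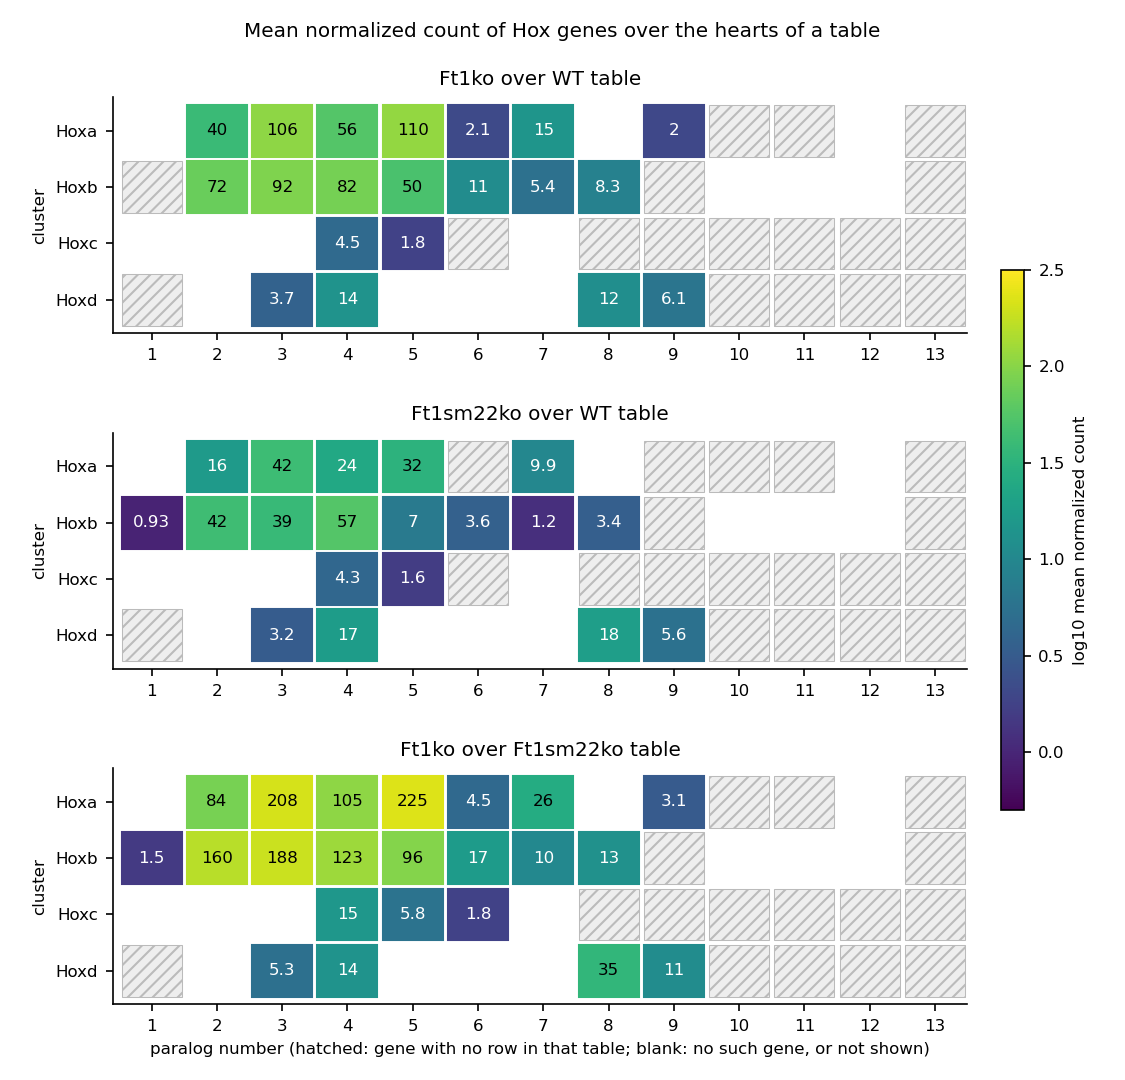
Mean normalized count of the Hox genes described here, by cluster (vertical) and paralog number (horizontal), in each of the 3 tables. Colour gives the log10 of the mean over all hearts of the table, numbers the mean itself, hatched squares genes with no row, and counts, which are not per length here, reach 225 for Hoxa5 in the table of the mutants.

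In WT hearts the levels per kilobase of exon were highest for Hoxb4, at 25.1 normalized counts per kb in the table with Ft1ko and 34.2 in the table with Ft1sm22ko. Hoxb4, known for its part in blood stem cells, was followed in WT by Hoxa4 with 12.3 and 16.9 and by Hoxa5 with 8.18 and 11.1 normalized counts per kb. The anterior genes had a WT median of 4.86 and 6.49, the central genes of 2.35 and 3.74, and the posterior genes Hoxa9 and Hoxd9 lay at 0.253 and 2.33 in the table with Ft1ko. In Ft1ko the order was led by Hoxa5 at 109 normalized counts per kb, ahead of Hoxa4 at 58.4 and Hoxa2 at 40.2. These levels have no error, so neighbours in the order cannot be told apart.

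In Ft1ko hearts 7 Hox genes of the Hoxa and Hoxb clusters and 1 of Hoxc were higher than in WT. Of the 21 listed genes, 8 were higher and 0 lower, where 19.7% of all 16748 genes tested were higher and 16.1% lower, and 35.7% changed in either direction. The 8 genes were Hoxa2, Hoxa3, Hoxa4, Hoxa5, Hoxb2, Hoxb3, Hoxb5 and Hoxc4. The median log2 difference of the listed Hox genes was 2.25, against 0.14 over all genes and -0.11 over genes with a mean of at least 100. It was 1.93 when the 3 genes with a WT total under 3 normalized counts were set against that floor. In Ft1sm22ko 1 Hox gene was higher (Hoxc4) and 1 lower (Hoxd4) of 20, where 16.2% of 16661 genes were higher and 16.0% lower, 32.2% in all. The median there was 0.29, against 0.07 over all genes. These medians are not over the same genes. Hoxa6 and Hoxa9 were listed only in comparisons with Ft1ko, and Hoxb1 only in those with Ft1sm22ko.

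The direct comparison of the mutants tested whether they differ. Ft1ko exceeded Ft1sm22ko in 11 of 23 Hox genes and was below it in 0, where 9.0% of 17169 genes were higher and 10.8% lower, 19.8% in all. The 11 were Hoxa2 to Hoxa5 and Hoxb2 to Hoxb8, and the median over the listed Hox genes was 2.01, against 0.07 over all genes. Both comparisons use the same Ft1ko hearts, and the counts are therefore not independent of each other. By the stricter Bonferroni adjustment 2 genes passed in Ft1ko against WT (Hoxa3 and Hoxa5), 0 in Ft1sm22ko against WT and 2 between the mutants (Hoxa3 and Hoxa4).

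**Figure D2:**
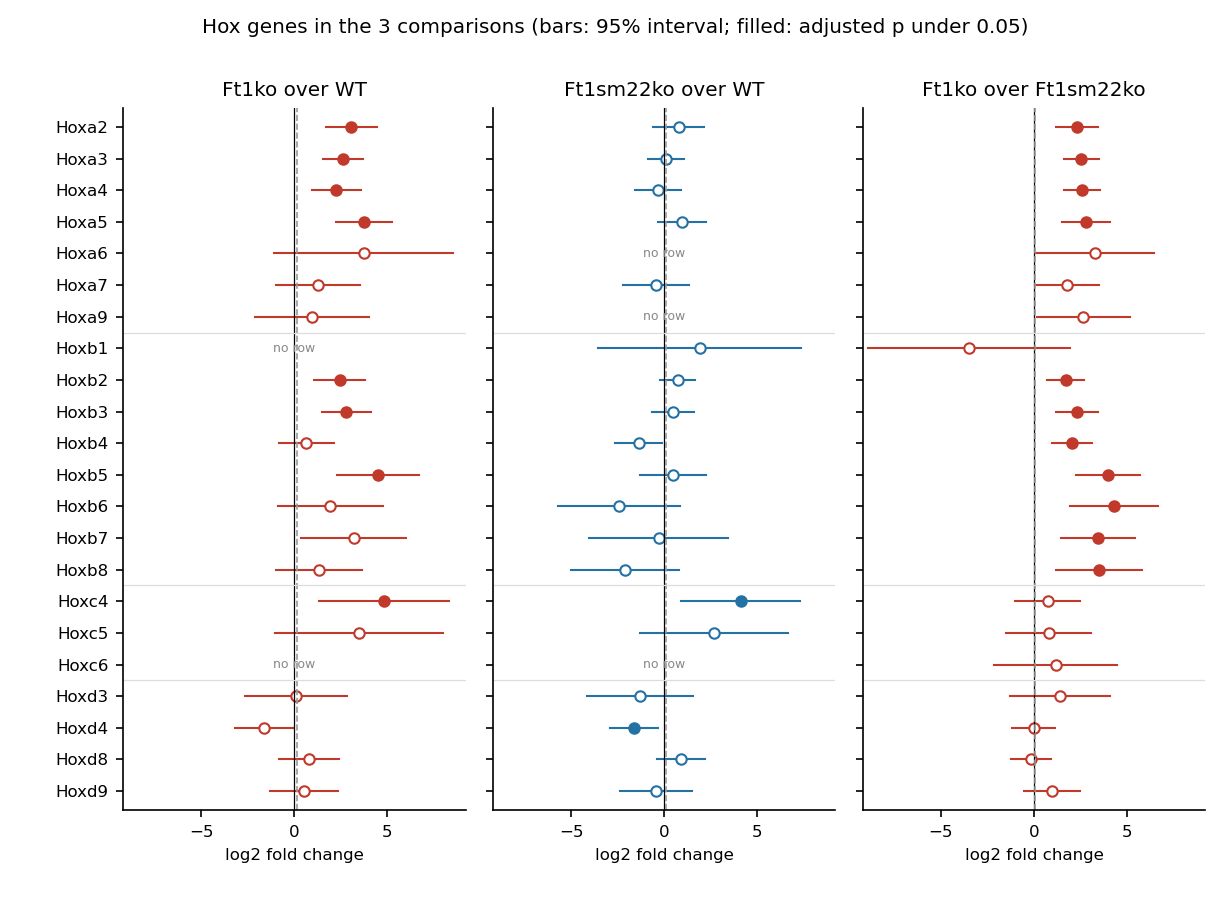
Log2 difference of the Hox genes described here (points) with its 95% interval (bars) in the 3 comparisons, filled where the adjusted p was under 0.05. The dashed line is the median of all genes. Filled points lie to the right of 0 in Hoxa2 to Hoxa5 and in Hoxb2, Hoxb3 and Hoxb5 in both comparisons with Ft1ko, and in Ft1sm22ko over WT only Hoxc4 and Hoxd4 are filled.

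In the Hoxa cluster the change in Ft1ko covered paralogs 2 to 5. Hoxa5, which is needed for the lung and airway and patterns the neck and upper chest, had a WT level of 15.4 and an Ft1ko level of 205 normalized counts, a log2 difference of 3.74 (SE 0.76, adjusted p = 1.31e-05). Hoxa3, needed for thymus and parathyroid, stood at 29.7 and 183, a log2 difference of 2.62 (SE 0.53, adjusted p = 1.22e-05). Both genes were also the ones with the smallest p of all Hox genes. Hoxa2, which specifies the second pharyngeal arch, rose from 8.49 to 71.3, a log2 difference of 3.07 (SE 0.71, adjusted p = 0.000127). Hoxa4, a gene of the cervical level, rose from 19.5 to 93.1, a log2 difference of 2.25 (SE 0.67, adjusted p = 0.00405).

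Hoxa6, Hoxa7 and Hoxa9 did not pass the threshold in Ft1ko. Hoxa7, a gene of the chest level, had a log2 difference of 1.28 (95% interval -0.96 to 3.52). Hoxa6, at a WT total under 1 normalized count, had 3.73 (-1.09 to 8.55), and Hoxa9, known from blood progenitors, 0.94 (-2.13 to 4.01). These intervals include both 0 and the differences of Hoxa3 or Hoxa4, so a rise of that size was neither shown nor excluded.

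In Ft1sm22ko none of the 6 listed Hoxa genes passed. Hoxa5 stood at 40.1 normalized counts against 20.9 in WT, a log2 difference of 0.94 (SE 0.66, adjusted p = 0.281), and Hoxa3 at 43.1 against 40.2, a difference of 0.10 (SE 0.48, adjusted p = 0.9). The 95% interval for Hoxa3 ran from -0.85 to 1.05, below its interval in Ft1ko of 1.57 to 3.67. Between the mutants Hoxa3 differed by 2.52 (SE 0.48, adjusted p = 1.29e-05), Hoxa4 by 2.58 (SE 0.50, adjusted p = 1.76e-05), Hoxa5 by 2.81 (SE 0.66, adjusted p = 0.000521) and Hoxa2 by 2.31 (SE 0.58, adjusted p = 0.00123). All 4 were therefore higher in the whole-body mutant than in the sm22-cre mutant. Hoxa6, Hoxa7 and Hoxa9 had log2 differences between the mutants of 3.25, 1.76 and 2.65 with adjusted p of 0.144, 0.146 and 0.123.

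In the Hoxb cluster 3 genes were higher in Ft1ko than in WT. Hoxb5, expressed in gut, lung and vessel walls of the embryo, rose from 4.25 to 95.7 normalized counts, a log2 difference of 4.49 (SE 1.13, adjusted p = 0.000482). Hoxb3, a partner of Hoxa3 in the pharyngeal region, rose from 23.3 to 160, a log2 difference of 2.78 (SE 0.67, adjusted p = 0.00027). Hoxb2, a gene of the hindbrain and its neural crest, rose from 22.6 to 122, a log2 difference of 2.43 (SE 0.69, adjusted p = 0.00237). Hoxb4 lay between these genes on the chromosome and had the highest WT level per kilobase, but differed by only 0.64 (SE 0.75, adjusted p = 0.535), from 64.3 to 100 normalized counts. Hoxb6, Hoxb7 and Hoxb8, genes of the lower neck and chest level, had log2 differences of 1.93, 3.19 and 1.33 with adjusted p of 0.305, 0.0693 and 0.397, at WT levels under 5 normalized counts.

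The mutants differed from each other in 7 of the 8 Hoxb genes, Hoxb4 and Hoxb6 to Hoxb8 among them. Hoxb6 was at 37.1 normalized counts in Ft1ko and 1.89 in Ft1sm22ko, a log2 difference of 4.29 (SE 1.21, adjusted p = 0.00478). Hoxb7 stood at 21.1 and 1.93 with a difference of 3.45 (SE 1.02, adjusted p = 0.00714), and Hoxb8 at 26.3 and 2.36 with 3.48 (SE 1.17, adjusted p = 0.0197). In Ft1sm22ko against WT the 3 genes had log2 differences of -2.44, -0.29 and -2.10, none past the threshold. Hoxb4 likewise had -1.38 (SE 0.64, adjusted p = 0.0852) in Ft1sm22ko against WT, at 33.7 against 87.8 normalized counts, and differed between the mutants by 2.01 (SE 0.55, adjusted p = 0.00312). Neither mutant was shown to differ from WT in these 4 genes, while the mutants differed from each other.

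Hoxb5, Hoxb3 and Hoxb2 were also higher in Ft1ko than in Ft1sm22ko, by 3.99 (SE 0.88, adjusted p = 0.000183), 2.32 (SE 0.57, adjusted p = 0.000985) and 1.69 (SE 0.51, adjusted p = 0.00854). In Ft1sm22ko against WT their log2 differences were 0.48, 0.48 and 0.74, with adjusted p of 0.724, 0.563 and 0.238. Hoxb1, a gene of the hindbrain, was the exception of its cluster. It was near the detection limit, with 2.45 normalized counts in Ft1sm22ko and a total under 1 over the 3 Ft1ko hearts, and had a log2 difference between the mutants of -3.50 with an interval of -8.94 to 1.93.

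**Figure D3:**
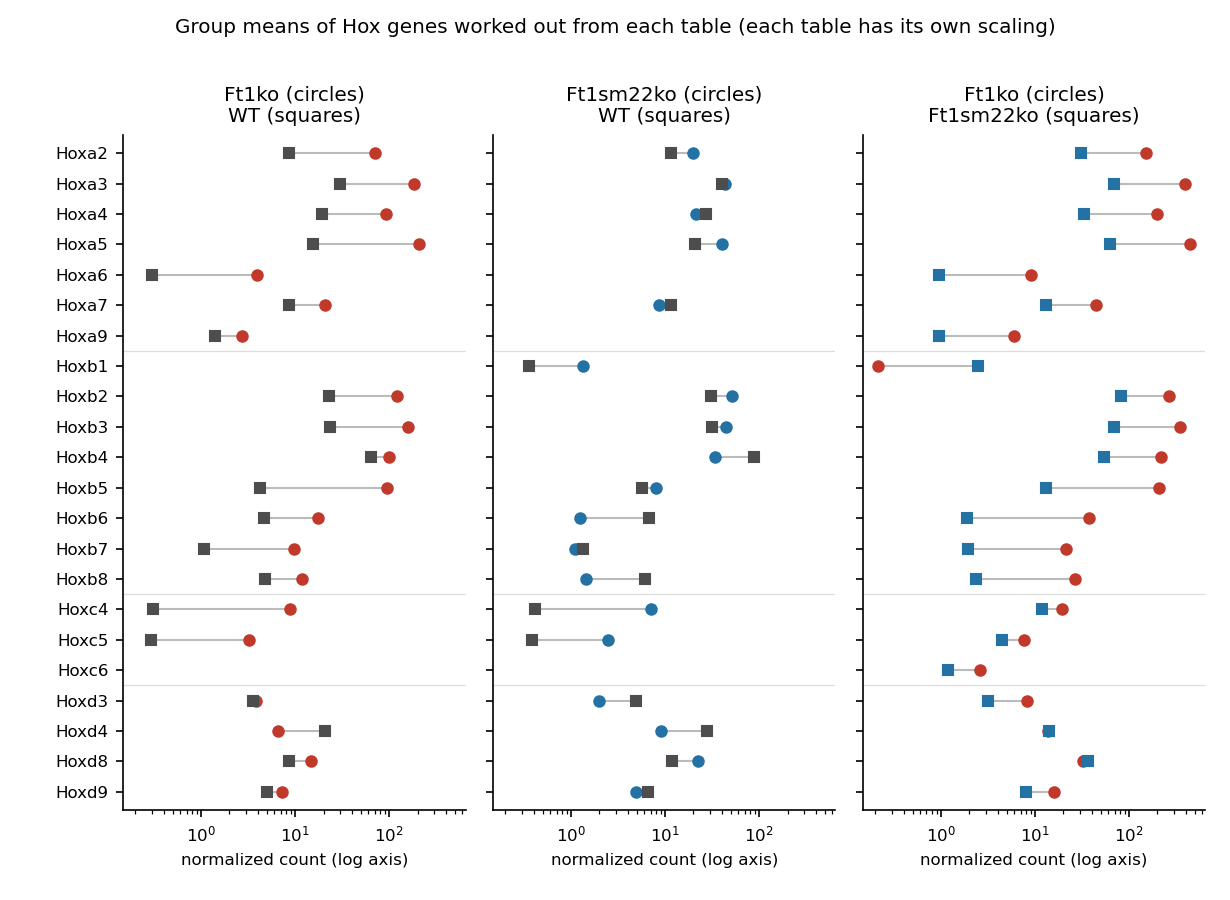
Group levels of the same Hox genes in normalized counts on a log axis, worked out from each table without error, with circles for the first group and squares for the second. In both comparisons with Ft1ko the circles of Hoxa2 to Hoxa5 lie right of the squares, at 71.3 to 205 against 8.49 to 29.7 in WT, and in Ft1sm22ko against WT circles and squares lie on either side.

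In the Hoxc and Hoxd clusters only Hoxc4 and Hoxd4 passed in any comparison. Hoxc4, a cervical gene, was the only Hox gene higher than WT in both mutants, by 4.82 (SE 1.77, adjusted p = 0.0221) in Ft1ko and 4.10 (SE 1.64, adjusted p = 0.0399) in Ft1sm22ko. Its level was low, with 8.74 normalized counts in Ft1ko and 7.14 in Ft1sm22ko, and the WT total over 3 hearts came to 0.926 and 1.25. With WT set to a total of 3 the log2 difference was 3.13 in Ft1ko and 2.84 in Ft1sm22ko. Between the mutants Hoxc4 differed by 0.72 (interval -1.01 to 2.44, adjusted p = 0.622). Hoxc5 and Hoxc6, with means from 1.59 to 5.78 normalized counts, passed in none of the comparisons that listed them.

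Hoxd4, which shapes the second cervical vertebra, was the only Hox gene that fell. It stood at 9.07 normalized counts in Ft1sm22ko against 27.9 in WT, a log2 difference of -1.62 (SE 0.65, adjusted p = 0.04). In Ft1ko it stood at 6.61 against 20.7, a difference of -1.65 (SE 0.80) that did not pass (adjusted p = 0.0921). The mutants differed by -0.02 in Hoxd4, with an interval of -1.18 to 1.13. Hoxd3, Hoxd8 and Hoxd9 passed in no comparison, and their log2 differences in Ft1ko against WT were 0.10, 0.77 and 0.53. Hoxd8, at 14.8 against 8.68 normalized counts, had an interval of -0.84 to 2.39. It overlaps the interval of Hoxa3, 1.57 to 3.67, and the difference between these genes was not tested.

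Read by paralog number, the calls in Ft1ko fell on numbers 2 to 5. Over Hoxa2 to Hoxa5 and Hoxb2 to Hoxb5, 7 of 8 genes were higher than WT with a median log2 difference of 2.70, and 8 of 8 were higher than in Ft1sm22ko with a median of 2.42. This range was picked after the values were seen, and its genes have the highest counts of the Hox genes in the table of Ft1ko and WT, with means of 39.9 to 110. By class, 4 of 6 anterior, 4 of 13 central and 0 of 2 posterior genes were higher in Ft1ko than in WT, with medians of 2.53, 2.25 and 0.74, where 19.7% of all genes were higher. The genes of paralog number 4 had log2 differences in Ft1ko of 2.25 in Hoxa4, 0.64 in Hoxb4, 3.13 in Hoxc4 with WT set to a total of 3, and -1.65 in Hoxd4, where Hoxb4 and Hoxd4 did not pass and the difference between the genes was not tested.

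Many Hox genes share DNA with a neighbour, which limits how far single genes can be told apart. In the GENCODE annotation of GRCm38, 10 of the 23 genes overlap another gene on the same strand and 13 one on the other strand, and 17 do either. The Hoxa3 span covers Hoxa4, Hoxa5 and Hoxa6, so reads of these genes may have been split or dropped. Hoxd3 and Hoxd4 overlap each other. The libraries keep the strand, but the strand setting of the counting is not given in the sources used here.

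Cofactors of the TALE class bind DNA together with Hox proteins. Of 9 such genes, 2 were higher and 0 lower in Ft1ko than in WT, with a median of 0.48, where 19.7% and 16.1% of all genes were called. These were Pbx4 at 2.94 (SE 0.79, adjusted p = 0.00116) and Pknox2 at 1.02 (SE 0.36, adjusted p = 0.0179). In Ft1sm22ko Pknox2 was higher by 0.68 and Meis2 by 0.54, and Pbx2 lower by a log2 difference of -0.43. Between the mutants Pbx2 (0.62) and Meis3 (0.70) were higher in Ft1ko, of 9 genes.

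Polycomb proteins keep Hox genes silent and Trithorax proteins keep them active. Of 22 Polycomb genes 7 were higher and 2 lower in Ft1ko than in WT, 6 higher and 4 lower in Ft1sm22ko, and 5 higher and 0 lower in Ft1ko than in Ft1sm22ko. Over all genes 19.7% were higher and 16.1% lower in Ft1ko, 16.2% and 16.0% in Ft1sm22ko, and 9.0% and 10.8% between the mutants, and the Trithorax and retinoic acid counts below are read against the same shares. Rnf2 at 1.42 (SE 0.27) and Phc1 at 1.17 (SE 0.25), both members of the complex PRC1, were among the genes higher in Ft1ko. Rnf2 (1.12) and Phc1 (0.85) also rose in Ft1sm22ko, while Phf1, a partner of PRC2, was lower in Ft1ko (-0.83) and in Ft1sm22ko (-1.49). Ezh2, the methyltransferase of PRC2, was higher in Ft1ko by 1.26 (SE 0.48, adjusted p = 0.0261). Of 11 Trithorax genes 1 was higher and 1 lower in Ft1ko than in WT, the lower one being Kmt2a (-0.99). In Ft1sm22ko 0 were higher and 3 lower, where Kmt2a differed by -1.25, Kmt2b by -1.23 and Kdm6b by -0.90. Between the mutants 1 was higher in Ft1ko (Kmt2b, 0.71) and 0 were lower.

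Retinoic acid switches on anterior Hox genes in the embryo. Several genes of its supply were higher in both mutants, and their part in the Hox differences was not tested. Of 12 listed genes of supply and breakdown 7 were higher and 1 lower in Ft1ko, with a median of 1.54, and 5 were higher and 1 lower in Ft1sm22ko, with a median of 1.63. Aldh1a1, which makes retinoic acid, was higher by 3.84 (SE 0.26, adjusted p = 4.69e-44) in Ft1ko. In Ft1sm22ko its log2 difference was 2.43 (SE 1.03) and did not pass (adjusted p = 0.0565). Aldh1a2 was higher by 1.29 and 1.91, Aldh1a3 by 1.66 and 2.26, and Rdh10, which makes the retinaldehyde they use, by 1.84 and 1.36. Dhrs3, which turns retinaldehyde back to retinol, fell in Ft1ko (-1.38) and in Ft1sm22ko (-1.29). Between the mutants 1 of 11 genes with a p differed, Crabp1, a binding protein of retinoic acid, at 4.05 (SE 1.03, adjusted p = 0.00144).

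No receptor of retinoic acid passed as higher than WT. Rxrg, a receptor of muscle, stood at 48.8 normalized counts in Ft1ko against 629 in WT, a log2 difference of -3.69 (SE 0.33, adjusted p = 1.14e-26), and differed by -1.49 in Ft1sm22ko and by -2.20 between the mutants. Of the 6 receptors 0 were higher than WT in either mutant, and Rxrb was also lower in Ft1ko (-0.72). Between the mutants 1 receptor was higher in Ft1ko and 2 were lower, Rxrg among them. Of 7 listed regulators of axial level 1 was higher and 1 lower in Ft1ko, where 19.7% and 16.1% of all genes were called. In Ft1sm22ko 2 of 5 listed were higher and 1 lower, where 16.2% and 16.0% were called. Gdf11, a growth factor that sets the trunk to tail boundary, was higher by 2.11 (SE 0.69) in Ft1ko and 2.17 (SE 0.62) in Ft1sm22ko. Its receptor Acvr2b was lower, by log2 differences of -2.32 and -2.75. Egr2, a hindbrain regulator of Hox genes, was higher in Ft1sm22ko (1.42).

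Noncoding RNAs inside the clusters were low in level. Hotairm1, a noncoding RNA of the Hoxa cluster, was higher in Ft1ko by 1.78 (SE 0.72, adjusted p = 0.0397), at 29 against 8.42 normalized counts. Halr1, which flanks the same cluster, changed the other way, from 31.9 in WT to 3.02 in Ft1ko (log2 difference -3.40, SE 0.72, adjusted p = 2.47e-05) and from 43.4 to 8.48 in Ft1sm22ko (-2.36, SE 0.53, adjusted p = 0.000116). Hoxaas2 and Hoxb5os, antisense to Hoxa3 and to Hoxb5 and Hoxb6, were higher in Ft1ko than in Ft1sm22ko by 3.19 (SE 0.97) and 4.77 (SE 1.60). Reads of these antisense RNAs and of the Hox genes they overlap may not be separated, as above.

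The genes that flank the clusters moved in both directions. Of 18 tested neighbours, Halr1 included, 5 were higher and 3 lower in Ft1ko, with a median of 0.19, and 2 were higher and 2 lower in Ft1sm22ko. Over all genes 19.7% were higher and 16.1% lower in Ft1ko, and 16.2% and 16.0% in Ft1sm22ko. Near Hoxa, Skap2 was higher (1.54) and Hibadh lower (-1.39) in Ft1ko. Beside Hoxb, Ttll6, a tubulin-modifying enzyme of cilia, was higher by 6.98 (SE 1.35) at a WT total under 1 normalized count, and Cbx1 by 1.49. Atp5g3, a subunit of the mitochondrial ATP synthase and neighbour of Hoxd, was lower in Ft1ko by a log2 difference of -1.98 (SE 0.51, adjusted p = 0.000658). Between the mutants 3 neighbours were higher and 3 lower in Ft1ko, with a median of 0.02.

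**Figure D4:**
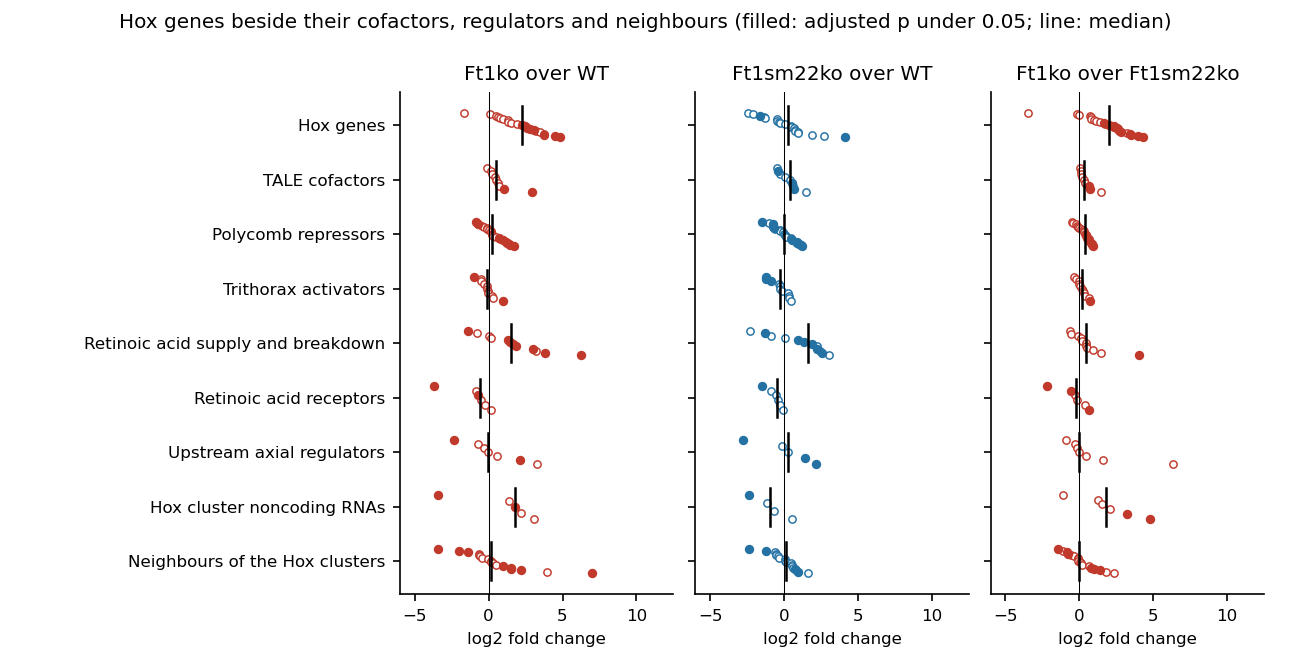
Log2 differences of the Hox genes (top row) and of 8 lists of cofactors, regulators and neighbours in the 3 comparisons, 1 point per gene with a p, filled at an adjusted p under 0.05, with a line at the median. In Ft1ko over WT the Hox median is 2.25 and the TALE and Polycomb medians are 0.48 and 0.24, while retinoic acid supply genes have medians of 1.54 and 1.63 in the 2 mutants over WT.

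Markers of lung, which is no part of the heart, were also higher in Ft1ko than in WT. All 10 markers of lung epithelium were higher in Ft1ko than in WT, with a median of 7.54, and their group levels summed to 57194 normalized counts in Ft1ko against 606 in WT. The smallest p were those of Sftpd at 11.74 (SE 1.93), Aqp5 at 9.65 (SE 1.92) and Napsa at 4.10 (SE 0.89), and Sftpd and Aqp5 were near 0 in WT, at 0.319 and 0.642 normalized counts. All 5 markers of lung mesenchyme rose as well, with a median of 5.56 and sums of 2157 against 44.8 normalized counts. Fgf10 (6.37, SE 1.25), Tbx4 (8.18, SE 1.91) and Wnt2 (3.70, SE 0.86) led that list. In Ft1sm22ko against WT the sums were 6467 against 831 for epithelium and 91.1 against 60 for mesenchyme, with 8 of 10 epithelial markers lacking a p. Ft1ko exceeded Ft1sm22ko in 4 of 10 epithelial and 5 of 5 mesenchymal markers, with medians of 5.22 and 3.79.

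Markers of the thymus had much higher levels in Ft1ko, but nearly all lacked a p, since DESeq2 gives none to a gene with an outlying count in a single library. The 12 thymocyte markers summed to 5744 normalized counts in Ft1ko and 77.5 in WT, and 11 had no p. The 6 markers of thymic epithelium summed to 1592 and 27, and 6 had no p. All listed Hox genes had a p in every table. Whether a single heart carried a Hox difference was not tested, as no values per heart were analysed here. Between the mutants the thymocyte markers summed to 12358 in Ft1ko and 278 in Ft1sm22ko. The part of lung and thymus tissue in the Hox differences was not tested.

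Lists of other cell types were counted in the same way. The shares over all genes were 19.7% higher and 16.1% lower in Ft1ko, and 16.2% and 16.0% in Ft1sm22ko. Between the mutants they were 9.0% and 10.8%. Counts of the lung markers above and of the marker lists here and below are read against these shares. Of 9 fat markers 6 were higher in Ft1ko and 3 in Ft1sm22ko than in WT, and 3 were higher in Ft1ko than in Ft1sm22ko. Of 8 markers of epicardium and mesothelium 6 were higher in each mutant than in WT, at medians of 3.41 and 3.42, and 1 differed between the mutants. Atrial markers, which share Nppa with the cardiomyocyte list, were higher in 7 of 8 and in 8 of 8, and 0 of 8 differed between the mutants. Their group levels summed to 56458 normalized counts in Ft1ko against 1280 in WT, and to 75318 in Ft1sm22ko against 1732, and the part of atrial tissue in the Hox differences was not tested. Fibroblast markers were higher in 5 of 7 and in 7 of 7, and 0 were higher and 2 lower in Ft1ko than in Ft1sm22ko. Cartilage and bone markers were higher in 4 of 9 and in 3 of 5 listed genes, and skeletal muscle markers in 0 of 7 and in 0 of 9. Of 10 markers of neural crest, glia and autonomic neurons 3 were higher and 1 lower in Ft1ko, and 1 was higher in Ft1sm22ko. Smooth muscle had 4 of 7 higher and 2 lower in Ft1ko, and 2 higher and 1 lower in Ft1sm22ko. Endothelium had 0 of 8 higher and 2 lower in Ft1ko, and 2 higher and 3 lower in Ft1sm22ko.

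The tissue itself was heart, with cardiomyocyte markers at means from 1090 to 403594 normalized counts in the table of Ft1ko and WT. Their sum was 284278 normalized counts in Ft1ko against 1368329 in WT, with 7 of 10 lower and 1 higher (Nppa, an atrial hormone that also rises in stressed ventricle). In Ft1sm22ko 5 were lower than in WT and 1 higher. Between the mutants 5 were lower and 0 higher in Ft1ko, with sums of 611888 against 1389637 normalized counts in Ft1sm22ko. In bulk tissue fewer cells of a type and less RNA per cell cannot be told apart, and the same holds for more cells with Hox RNA and more Hox RNA per cell.

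**Figure D5:**
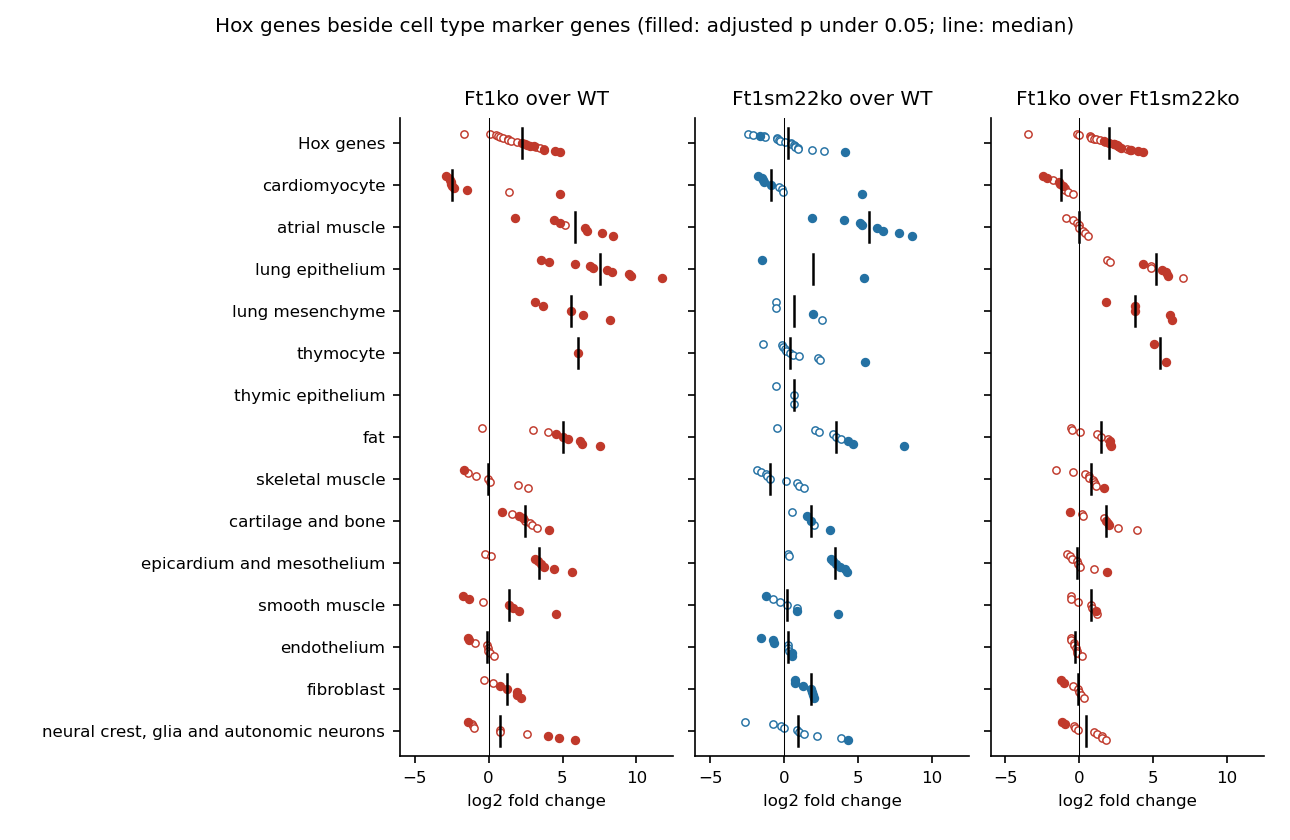
Log2 differences of the Hox genes (top row) beside 14 lists of cell type markers in the 3 comparisons, 1 point per gene with a p, filled at an adjusted p under 0.05, with a line at the median of these genes. The medians of the Hox genes, lung epithelium and lung mesenchyme lie to the right of 0 in both comparisons with Ft1ko, at 2.25, 7.54 and 5.56 over WT, with 1 Hox gene below 0 over WT and 3 below 0 over Ft1sm22ko. So do those of fat, cartilage and bone, smooth muscle and neural crest, at 5.04, 2.46, 1.39 and 0.76 over WT. The few thymocyte markers with a p lie there too. Atrial markers lie to the right of 0 in both mutants over WT.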

How the data were processed

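RNA of heart tissue was sequenced by the authors after TRIzol extraction and library preparation with the Universal Plus mRNA-Seq kit. Reads were aligned with STAR to a reference that the paper and the labels name hg38, although the gene names are mouse symbols, and StringTie and htseq-count are named for counting, with no versions. The authors fitted DESeq2 to each pair of groups, and the deposited tables hold only the results of these fits. As mean signal, the authors deposited for each gene the counts divided by size factors and averaged over the hearts of both groups. Differences and their standard errors were deposited in log2 units. A score, which equals their ratio and is the Wald statistic, and a 2-sided p-value from it were deposited too, next to an adjusted p of the authors. The labels do not say whether hearts shared a litter, and the depth of each library is unknown, so precision is given by the standard errors alone.

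From these columns the p were adjusted again by Benjamini-Hochberg over all genes with a p (16748, 16661 and 17169 genes), with a threshold of 0.05. Signs were set to mutant over WT and Ft1ko over Ft1sm22ko and checked on Aktip. The 3 differences of a Hox gene closed to a median of 0.001 over 19 genes. The code of the p adjustment was tried on simulated data with far fewer changed genes than here, which does not bear on the calls themselves. Exon lengths and overlaps come from the GENCODE annotation of GRCm38, and promoters from RefSeq, matched by symbol. Genes named are all Hox genes past the threshold, the other Hox genes as a group or by value, in a pathway list the members past it up to 6 by smallest p and the most abundant one, in a marker list up to 3 by smallest p, and Aktip. A few of these genes enter the counts but are not reported here by name. The members and lists were chosen with earlier results of these data known. Alternatives were Bonferroni, the authors' own adjusted p, limits on the mean or the fold, and centring on the median of all or of abundant genes. Python 3.11.15 was used with pandas 2.3.3, numpy 2.4.6 and scipy 1.17.1, and figures were drawn with matplotlib 3.10.9.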

Additional observations from a re-analysis of the deposited data

Results flagged for a closer look

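The levels of 11 Hox genes differed between the mutants by a direct test, the DESeq2 comparison of 3 Ft1ko with 4 Ft1sm22ko hearts with Benjamini-Hochberg adjustment. In the Hoxa cluster the log2 difference of Ft1ko over Ft1sm22ko was 2.31 for Hoxa2, 2.52 for Hoxa3, 2.58 for Hoxa4 and 2.81 for Hoxa5. In the Hoxb cluster it was 1.69 for Hoxb2, 2.32 for Hoxb3, 2.01 for Hoxb4, 3.99 for Hoxb5, 4.29 for Hoxb6, 3.45 for Hoxb7 and 3.48 for Hoxb8. No Hoxc or Hoxd gene differed by this test. For Hoxb4, Hoxb6, Hoxb7 and Hoxb8 neither mutant passed against WT. With no values per heart analysed here, no heart could be tested for standing apart from its group.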

How the results depend on the processing

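Of 8 Hox genes called in Ft1ko against WT 2 were called by Bonferroni, of 2 called in Ft1sm22ko against WT 0, and of 11 called between the mutants 2. With only genes of a mean of at least 10 normalized counts, 1 gene (Hoxd4) was called in Ft1sm22ko against WT. With a mean of at least 100 the counts were 2, 0 and 6 in the 3 comparisons, over fewer genes. Centring on the median of all genes turned Hoxd3 in Ft1ko against WT to -0.03, and centring on genes with a mean of at least 100 turned Hoxd4 between the mutants to 0.01, both far inside their intervals. Over single genes and alternatives, 338 of 357 values kept their direction and side of the threshold and 17 lost the call, all 17 under Bonferroni. Only centring changes a log2 difference, so under the other alternatives the direction was fixed in advance. Genes without a value under an alternative are not among the 357. The limit of 10 removed Hoxc4 in both comparisons with WT. That of 100 removed Hoxa2, Hoxa4, Hoxb2, Hoxb3 and Hoxb5 in Ft1ko against WT. The number of measured genes was 12, 9 and 17 at a mean of at least 10, 21, 19 and 23 at 1, and 6, 1 and 8 at 50. No paired analysis was possible because the tables used here hold no values of single hearts. For the same reason no heart was left out in turn.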
